A study of Bos taurus with 2 samples.

Results

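The miRNAs described here are those that the study listed as conserved, which means that their reads matched a miRNA precursor of another mammal while miRBase held no bovine entry of that sequence. They carry the prefix PC. Of the 96 unique conserved miRNAs, 88 were taken, out of 884 unique miRNAs in all, after leaving out PC-203, PC-205, PC-503, names that begin with PC-320, and entries of a block of hairpins on chromosome 21. The rule used names and positions and no read count. The lactation library came from the mammary gland of 1 multiparous dairy cow, 6 years old, that had been in milk for 2 months. The non-lactation library came from 1 multiparous dairy cow, 4 years old, that was neither lactating nor pregnant. Stage, animal and age thus cannot be told apart, and with 1 library per condition no test between conditions was possible.

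A mature miRNA is cut from a hairpin and guides silencing proteins to mRNAs, chiefly through its seed, the bases 2 to 8. Families share a seed across mammals, so that a sequence from one species often finds a close relative in another. In a small RNA library each miRNA appears as isomiRs, variants that differ in length or in single letters, most often at the 3′ end. Families of known interest in the mammary gland include mir-200, a set typical of epithelial cells, let-7, which is associated with differentiated cells, and mir-26 and mir-15/16, which restrain cell growth.

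The label "conserved and not yet known in cattle" was first checked against the 283 known bovine miRNAs of the same study. A member was said to share sequence with a known miRNA when at least 15 consecutive letters were identical, and the known miRNA with the longest such run was its partner. In a tie the known miRNA with more summed reads was taken. Of the 88 members, 38 shared such a run and 50 did not. The label thus did not hold in the same way for all members. Most members had either short or long runs. Of the members that did not share, 42 had runs of 6 to 9 letters. Of those that did, 29 had runs of 20 to 23. Between these ranges every length from 11 to 19 letters occurred, so that no gap marked the limit of 15. Just inside the limit stood PC-7e-5p, with 15 letters of let-7f-5p. Just outside stood PC-199b-3p, with 14 letters of mir-199a-3p, and PC-92c-3p, with 14 of mir-92-3p.

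**Figure D1:**
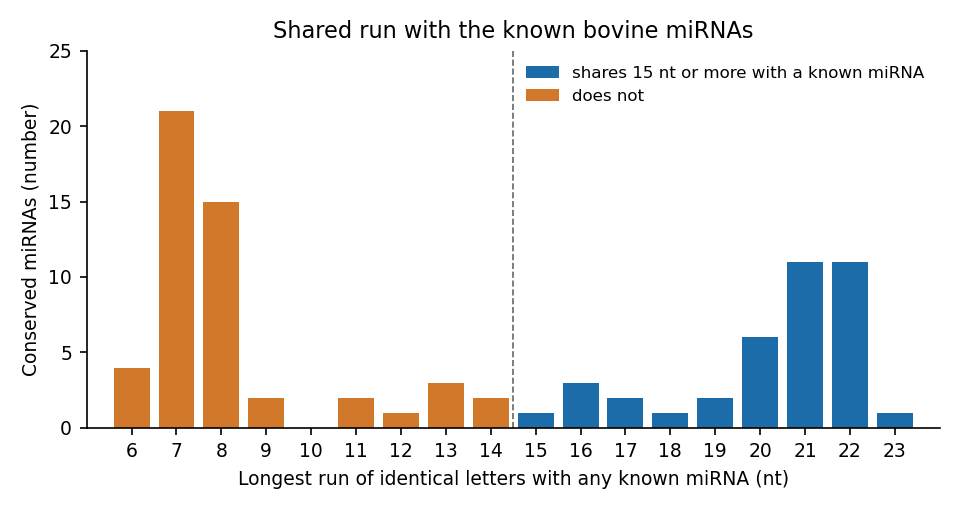
Number of conserved miRNAs (y axis) by the longest run of identical letters that each had with any known bovine miRNA (x axis, nt), with the limit of 15 nt as a dashed line. No member had a run of 10 nt, and the tallest bars below the limit are at 7 nt, with 21 members, and 8 nt, with 15, and those above it at 21 and 22 nt, with 11 each.

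The following pairs show what set the sharing members apart from the bovine miRNAs already known. Each is printed 5′ to 3′ as deposited, with the letters outside the shared run in capitals.
PC-200a-3p: uaacacugucugguaacgauguuU
mir-200a-3p: uaacacugucugguaacgauguu
PC-7c-5p: ugagguaguagguuguaugguuUU
let-7c-5p: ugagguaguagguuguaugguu
PC-26-1-5p: CuucaaguaauccaggauaggcuU
PC-26-5p: uucaaguaauccaggauaggcuGG
mir-26a-5p: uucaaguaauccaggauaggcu
PC-429-2-3p: uaauacugucugguaaugccguAA
mir-429-3p: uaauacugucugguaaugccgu
PC-15a-5p: uagcagcacauaaugguuuguGA
mir-15a-5p: uagcagcacauaaugguuugu
PC-7e-5p: ugagguaguagauugAAUAGUU
let-7f-5p: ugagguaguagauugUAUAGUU
PC-1827-3p printed against the same let-7f-5p was UGAGGCaguagauuguauaguuA. In most of the pairs printed here, the member thus held the whole known sequence with other letters at the 3′ end. PC-7e-5p carried the substitution U16A and PC-1827-3p the substitution U6C, with positions counted from 1 at the 5′ end of the known miRNA.

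Among the 38 sharing members, 26 differed from the partner by end letters alone. In 7 a letter was added or changed at the 5′ end, and in 5 a letter inside the known sequence was substituted. Positions were those of the partner, compared without gaps. PC-145-5p, with C20A at its own last letter, is thus among the 5. PC-352-3p, which lacks a G near the 5′ end of let-7d-5p, is among the 7. The seed was the same as that of the partner in 31 and different in 7. The letters beyond the partner's 3′ end were a single U in 7 members, a single A in 4, and AA or CG in 2 members each, while 16 members had none. The last letter was A in 42.1% of sharing members, in 46% of the others and in 23.7% of the 283 known miRNAs. Compared with the homologous hairpin listed for it, the sequence of 13 sharing members matched in full and 22 differed at a single letter, which was the last letter in 13 of these. Of the 50 other members, 27 matched in full and 22 differed at a single letter, the last letter in 4.

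Members that did not share a run were mostly of other families. The seed of 44 of the 50 was not found in any known bovine miRNA of the study, against 7 of the 38 sharing members. The 6 with a known seed were PC-106a-5p, PC-7b-5p, PC-139-5p, PC-151-3p, PC-193a-5p and PC-92c-3p. These, PC-199b-3p and PC-330-3p differed from a known miRNA by at most 2 substitutions that broke the run. PC-193a-5p, for example, carried C11U against mir-193a-5p, and PC-7b-5p carried A10U against mir-7-5p. The most abundant members without a shared run are printed with the seed in capitals.
PC-574-3p (22 nt): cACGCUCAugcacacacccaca
PC-210-3p: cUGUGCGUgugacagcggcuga
PC-652-3p: aAUGGCGCcacuaggguugugu
PC-1274-5p: uCCCUGUUcgggcgcca

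Among the members themselves 72 different seeds were found. The largest group was AGCAGCA, the mir-15/16 seed, held by PC-15a-5p, PC-15b-5p, PC-16a-5p, PC-16b-5p, PC-16c-5p, PC-322-5p and PC-497-5p, all of which shared a run with a known miRNA. Groups of 3 were AAUACUG with PC-200b-3p and both PC-429 entries, AUUGCAC with PC-92b-3p, PC-92c-3p and PC-363-1-3p, and CUGGACU with PC-378-3p, PC-378b-3p and PC-422a-5p. The last seed was in no known miRNA of the study.

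The homolog species differed between the classes. A homolog from platypus or opossum, with no other species but cattle, was named for 23 members, of which 18 (78.3%) shared a run with a known bovine miRNA. PC-200b-3p was the member of this class that named cattle as well. A human homolog was named for 25 members, of which 8 (32%) shared a run, and mouse or rat without human for 27, of which 6 (22.2%) did. The remaining 13 named other mammals such as dog, horse or orangutan, and 6 of these shared a run. Opossum was named for 39.5% of sharing and 6% of other members, and mouse for 31.6% and 54%. A single species was named for 45 members and up to 9 for the rest. PC-210-3p and PC-200b-3p named a bovine homolog themselves. In the RefSeq annotation of a later bovine assembly (ARS-UCD2.0), a bovine miRNA gene with the name of the homolog was found for 33 of the 38 sharing members and for 28 of the 50 others. A shared name does not say that the sequence is the same.

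**Figure D2:**
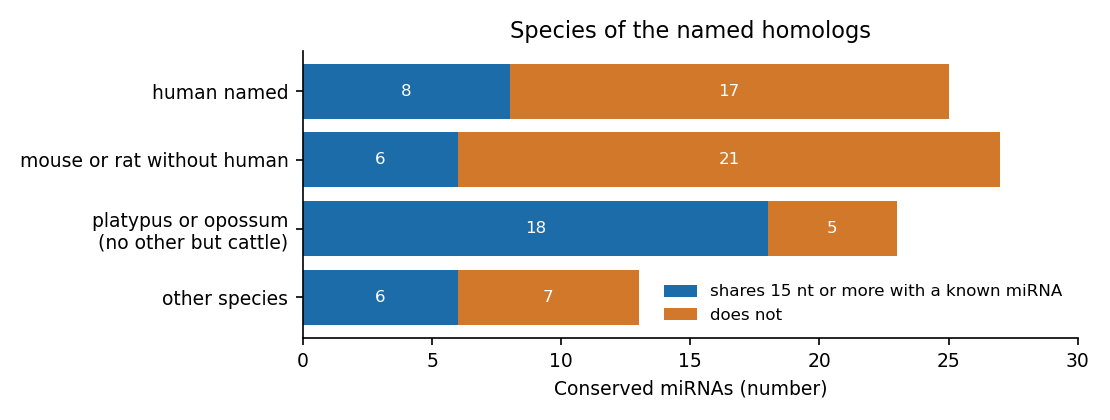
Number of conserved miRNAs (x axis) by the species of the named homologs (y axis), split by whether the sequence shared at least 15 nt with a known bovine miRNA. The class of platypus or opossum, in which PC-200b-3p named cattle too, has the largest sharing part, 18 of 23.

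A genome position on BTA 4.0 was listed for 15 members. The listed hairpins of 9 of these overlapped that of a known miRNA on the same strand. PC-26-5p stood at chr22:11464101-11464183 with mir-26a-5p, PC-92b-3p at chr12:64665794-64665893 with mir-92-3p, and PC-145-5p at chr7:60270230-60270321 with mir-145-5p. PC-106-5p and PC-106a-5p stood at chr12:64665525-64665643 with mir-20a-5p and at chr12:64665100-64665189 with mir-17-5p. The hairpins of the other 6, among them PC-1949-3p at chr7:49893474-49893543 and PC-1842-5p at chr25:2251843-2251902, overlapped no known one on that strand. On the opposite strand, PC-3065-5p at chr19:53057562-53057638 lay within the hairpin of mir-338-3p, of which its sequence is the exact reverse complement. PC-3065-5p had 4 and 0 reads and mir-338-3p 70 and 32. All positions are those of the precursor as the authors list them. Gene context was not analysed here.

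The members held few reads. Counts are reads of the most abundant sequence of each miRNA, and RPM are these reads per 1000000 clean reads of the library. Over all 88 members the lactation library held 10359 reads (866 RPM) and the non-lactation library 19073 (1194 RPM), against 5745961 and 7879028 reads over all listed miRNAs. The median member had 16.5 reads over both libraries and 39 had 10 or fewer, while the median known miRNA had 265. Of the 88, 51 were listed in both libraries, 29 in the lactation library alone and 8 in the non-lactation library alone. Over the 883 unique miRNAs of the series with counts, these numbers were 543, 206 and 134. Of those 29 members 10 had 3 reads, and of those 8 members 4 had 3 reads, which is the lowest count listed for any member.

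Sharing members held 73.0% of the member reads in lactation (exact 95% interval 72.1% to 73.8%) and 59.6% in non-lactation (58.9% to 60.3%). PC-574-3p of 22 nt held 31.1% (30.5% to 31.8%) of the member reads of the non-lactation library, and without it the sharing members held 86.5% there (85.9% to 87.0%). The order of the libraries thus turned on that miRNA. These intervals and all those below cover counting error only.

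All ratios divide the RPM of the lactation library by that of the non-lactation library. A count listed at 0 was set to 3 reads, so that such a ratio is a bound. A member was called higher or lower when it had at least 20 summed reads, a ratio of at least 2 or at most 0.5 and an interval clear of 1. Of 39 members with 20 reads or more, 12 were higher and 7 lower in the lactation library. Over all 421 miRNAs of the series with as many reads, 29.2% were called higher and 19.2% lower, so that the members' counts lay near the background in both directions. The 2 calls of PC-151-5p and PC-450b-1-5p did not hold under TMM, DESeq2 size factors, no scaling or counts of all isomiRs, and that of PC-342-1-3p did not hold with all isomiRs. Of 22 sharing members 6 were higher and 5 lower, with a median log2 ratio of -0.12. Of 17 others 6 were higher and 2 lower, with a median of 0.71. The median over all 421 was 0.24, and no test was made of these differences.

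**Figure D3:**
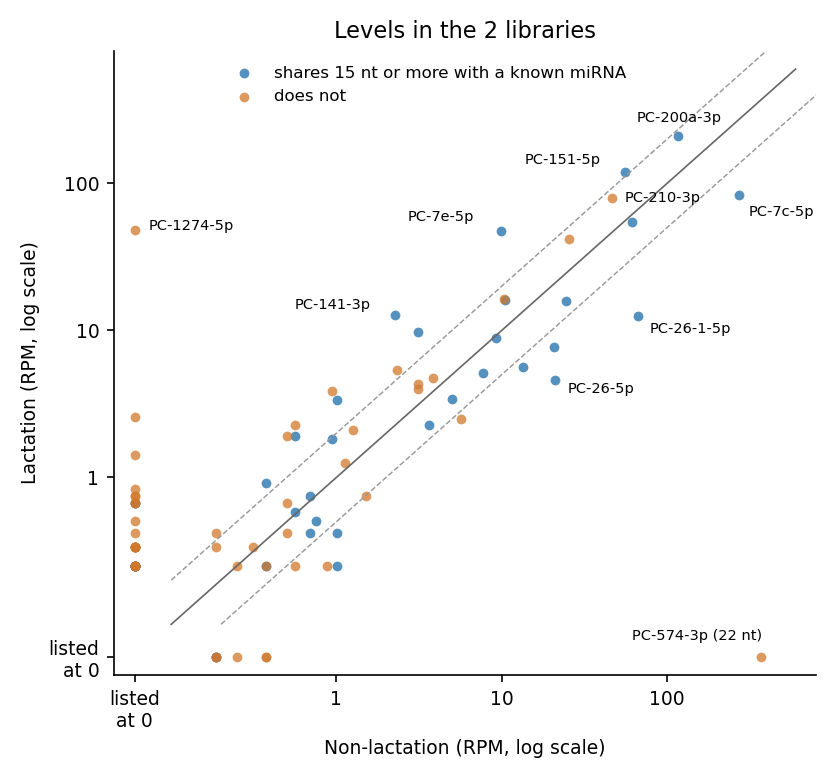
Level of each of the 88 conserved miRNAs in the non-lactation library (x axis, RPM, log scale) and the lactation library (y axis, RPM, log scale), with counts of 0 drawn at the edge. The solid line marks equal levels and the dashed lines 2-fold differences. PC-574-3p of 22 nt lies at 372 RPM on the edge of 0 for lactation, and PC-1274-5p at 48.1 RPM on the edge of 0 for non-lactation.

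The mir-200 family is expressed in epithelial cells, where it holds back the change to a mesenchymal state. All 5 members of this list shared a run with a known bovine mir-200 miRNA, and 3 were called higher and 1 lower in the lactation library. PC-200a-3p, the most abundant, had 2499 reads in lactation and 1863 in non-lactation, or 209 and 117 RPM, a ratio of 1.79 (1.69 to 1.90). Its known form mir-200a-3p, which lacks the last U, had 13281 and 7286 reads and a ratio of 2.43. Of the reads of both forms, PC-200a-3p made up 15.8% (15.3% to 16.4%) in lactation and 20.4% (19.5% to 21.2%) in non-lactation.

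PC-141-3p had 152 and 36 reads, or 12.7 and 2.25 RPM, and was 5.63-fold higher (3.90 to 8.35), while mir-141-3p, which differs by G22C, had 3873 and 302 reads and was 17.1-fold higher. With 40 and 16 reads PC-200b-3p was 3.34-fold higher (1.83 to 6.38), or 6.06-fold with all isomiRs, and with 23 and 9 reads PC-429-1-3p was 3.41-fold higher (1.52 to 8.37). PC-429-2-3p went the other way. It had 93 and 333 reads, or 7.77 and 20.9 RPM, and was 2.68-fold lower in the lactation library (2.13 to 3.41), whereas mir-429-3p, the same sequence without the last AA, had 2533 and 1521 reads and a ratio of 2.22. PC-429-2-3p was therefore 3.54% of the reads of the pair in lactation (2.87% to 4.32%) and 17.96% in non-lactation (16.2% to 19.8%).

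Summed, the known epithelial markers were higher in the lactation library. All but mir-200c are partners of the members above, so their reads are in part those already given. The 5 miRNAs mir-200a, mir-200b, mir-200c, mir-141 and mir-429 together reached 12201 RPM in lactation and 1903 RPM in non-lactation. Over 4 striated muscle miRNAs the sums were 4480 and 696 RPM, over the stroma and smooth muscle list 8640 and 14558 RPM, over mir-126 of endothelium 487 and 165 RPM, and over 7 miRNAs of blood cells 161 and 161 RPM. Within the stroma and smooth muscle list the markers did not move together. There mir-199a-3p had 25123 and 159166 reads, a ratio of 0.211. In the same list mir-145-5p had 48288 and 54860 reads, a ratio of 1.17. Only mir-144-3p among the listed markers was at 0 in a library, and mir-208a was not listed. The part of cell composition in the ratios was not tested, and in whole tissue more cells of a type cannot be told apart from more RNA per cell.

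The let-7 family rises as cells differentiate. All 4 members of the let-7-like list shared a run with a let-7 miRNA, and they did not move together. PC-7c-5p, with 2 more U than let-7c-5p, had 997 and 4332 reads, or 83.3 and 271 RPM, and was 3.26-fold lower in the lactation library (3.04 to 3.49). let-7c-5p itself had 254753 and 476952 reads and a ratio of 0.713, so that PC-7c-5p was 0.39% of the pair in the lactation library and 0.90% in the other. PC-7e-5p had 564 and 159 reads, or 47.1 and 9.96 RPM, and was 4.73-fold higher (3.96 to 5.68). Its partner let-7f-5p had 1003169 and 1422718 reads and a ratio of 0.941. PC-1827-3p had 41 and 80 reads, or 3.43 and 5.01 RPM, a ratio of 0.684 (0.458 to 1.01) whose interval held 1. With all isomiRs, 125 and 128 reads, its direction turned, with a ratio of 1.303. PC-352-3p had 7 and 9 reads.

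Both mir-26 entries were lower in the lactation library. PC-26-1-5p, with a C before and a U after mir-26a-5p, had 149 and 1061 reads, or 12.5 and 66.4 RPM, and was 5.34-fold lower (4.49 to 6.38). PC-26-5p, with GG at the end, had 55 and 336 reads, or 4.60 and 21.04 RPM, a ratio of 0.218 (0.161 to 0.291). mir-26a-5p had 275447 and 895738 reads and was 2.44-fold lower. PC-26-1-5p is 1 letter longer at the 5′ end, so its seed is not that of mir-26a-5p.

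The mir-15/16 group, whose members restrain the cell cycle, held 8 entries, of which 4 had 20 reads or more and none was called. With no scaling PC-15a-5p, PC-16b-5p and PC-497-5p were called lower, and with all isomiRs PC-497-5p. PC-15a-5p had 190 and 393 reads, or 15.9 and 24.6 RPM, a ratio of 0.645 (0.540 to 0.769), against 1379 and 2090 reads of mir-15a-5p. It was 12.1% of the pair in the lactation library and 15.8% in the other. PC-16b-5p had 61 and 123 reads, or 5.10 and 7.70 RPM, a ratio of 0.662 (0.479 to 0.907). Of the other 2, PC-497-5p had 27 and 58 reads and PC-322-5p had 22 and 15.

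In the group of mir-17/92 and its paralogs, which promotes growth in many tissues, only PC-92b-3p had 20 reads or more. It had 653 and 986 reads, or 54.6 and 61.7 RPM, a ratio of 0.884 (0.799 to 0.977), close to the 0.951 of mir-92-3p with its 45125 and 63315 reads. With all isomiRs, 947 and 1173 reads, the direction of PC-92b-3p turned, with a ratio of 1.08. PC-106-5p and PC-106a-5p had 3 reads each, all in the lactation library, and PC-19b-3p had 3, all in the non-lactation library. PC-92c-3p had 6 and PC-363-1-3p had 8 reads, all in the lactation library.

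The remaining sharing members with 100 reads or more were of separate families. PC-151-5p had 1426 and 886 reads, or 119 and 55.5 RPM, a ratio of 2.15 (1.97 to 2.34). Its run of 16 letters was with mir-28-5p, a related family, which had 268 and 204 reads, fewer than the member in both libraries. PC-22-3p had 116 and 50 reads, or 9.70 and 3.13 RPM, and was 3.10-fold higher (2.20 to 4.40), beside 13990 and 8351 reads of mir-22-3p. PC-342-1-3p, shorter than mir-342-3p by the last letters, had 68 and 216 reads, or 5.68 and 13.5 RPM, and was 2.38-fold lower (1.80 to 3.17). With all isomiRs its ratio was 0.555 and the call was lost. PC-145-5p, of a miRNA typical of smooth muscle, had 106 and 148 reads, or 8.86 and 9.27 RPM, a ratio of 0.956 (0.738 to 1.23). PC-23b-1-3p had 193 and 167 reads, or 16.1 and 10.5 RPM, a ratio of 1.54 (1.25 to 1.91). Its partner mir-23a-3p, by contrast, had 27061 and 56720 reads and a ratio of 0.637. The shared run of 17 letters is also whole in mir-23b-3p, which had fewer reads, 9813 and 27493.

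Member and partner could be compared in 22 pairs with 20 member reads or more and no count of 0, over 19 partners. The difference of their log2 ratios does not depend on the scaling. It was negative in 15 pairs and positive in 7, with a median of -0.39 and a range from -2.58 for PC-429-2-3p to 2.33 for PC-7e-5p. Its counting interval lay below 0 in 8 pairs, above 0 in 4 and over 0 in 10. In 16 pairs the difference was within 2-fold. In 17 pairs both ratios were on the same side of 1, and in 5 they were on opposite sides, for PC-429-2-3p, PC-7e-5p, PC-23b-1-3p, PC-145-5p and PC-16b-5p. Over the 22 pairs Pearson's r was 0.74 and Spearman's rho 0.72, as a description of points that come from the same 2 libraries and in part share a partner. The members made up a median of 1.10% of the reads of the pair in lactation and 1.22% in non-lactation. Over all 38 pairs, 36 members had fewer reads than the partner in both libraries. The exceptions were PC-151-5p and PC-219-1-5p.

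**Figure D4:**
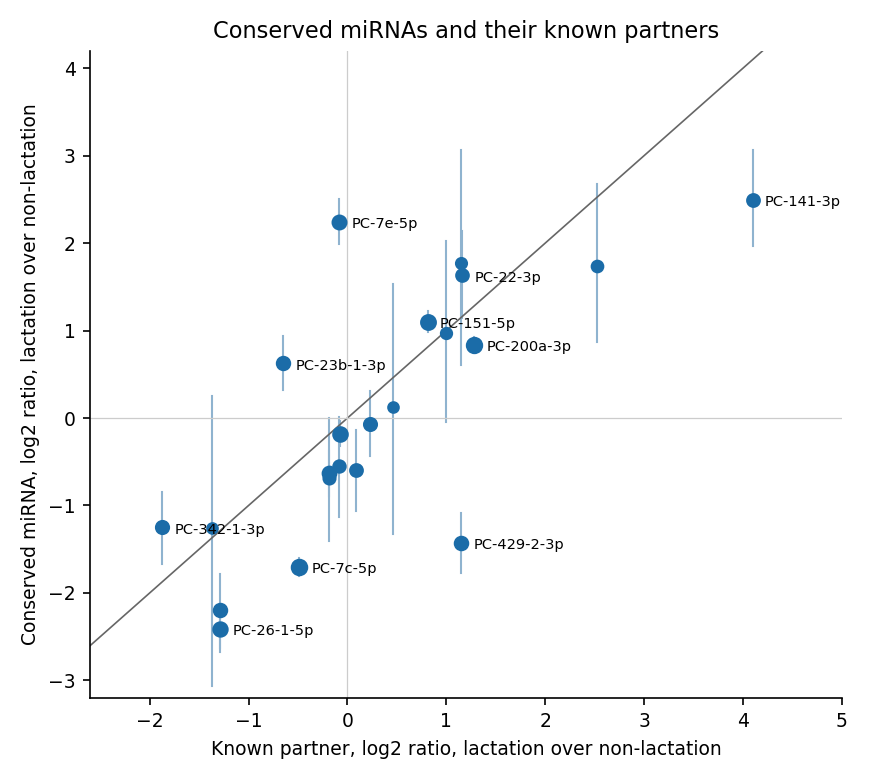
Log2 ratio of lactation over non-lactation for 22 conserved miRNAs (y axis) and for the known miRNA with the longest shared run (x axis). Bars are 95% counting intervals of the conserved miRNA, point size grows with its reads, and the diagonal marks equal ratios. PC-7e-5p lies 2.33 above the diagonal and PC-429-2-3p 2.58 below it.

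Among members without a shared run, the 22 nt form of PC-574-3p had the most reads. It was listed at 0 reads in lactation and at 5935 in non-lactation (372 RPM), and all its isomiRs held 0 and 9149 reads. With the listed 0 set to 3 reads, the bound was 1482-fold lower, with a counting interval of 507 to 7190. A count of 3 reads, the floor used for a listed 0, would be 0.251 RPM in the lactation library. Its 20 nt namesake had 4 and 0 reads, and PC-669e-3p, which holds that 20 nt sequence whole, had 0 and 4. The 3 entries, with letters outside the run shared with the 22 nt form in capitals, were as follows.
PC-574-3p (20 nt): CACAcucaugcacacaccca
PC-669e-3p: CACAcucaugcacacacccaca
The 22 nt form in the same marking was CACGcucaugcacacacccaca against PC-669e-3p. PC-669c-5p, the other member of this GU or CA repeat-like list, had 8 and 0 reads. The neighbours thus held 4 to 8 reads, and no known bovine miRNA shared more than 8 letters with any of them.

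Members named for mir-1274, mir-720, mir-1260 and mir-1937 form a group of their own, since the human mir-1274 and mir-720 entries were later withdrawn from miRBase as fragments of tRNA, whose mature 3′ end is CCA. The sequence ended in CCA in 7 of the 50 members without a shared run, among them PC-720-1-5p, PC-720-5p, PC-1274-5p, PC-1274a-5p, PC-1937b-5p and the 20 nt PC-574-3p. It did so in 1 of the 38 sharing members, 4 of the 283 known miRNAs and 26 of the 505 candidates with the prefix CN. No genome position was listed for the 5 with such names or for PC-1260b-5p.

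PC-1274-5p had 576 reads in the lactation library (48.1 RPM) and was listed at 0 in the other. With that 0 set to 3 reads, the bound was 256-fold higher, with a counting interval of 87.2 to 1246. All its isomiRs held 1696 and 0 reads, a bound of 754-fold higher on the same floor. PC-1274a-5p, in contrast, had 197 and 165 reads, or 16.5 and 10.3 RPM, a ratio of 1.59 (1.29 to 1.97), and 2.14 with all isomiRs. The 17 letters of PC-1274-5p lie whole inside PC-1274a-5p, as the lines show with the letters outside the shared run in capitals.
PC-1274-5p: ucccuguucgggcgcca
PC-1274a-5p: UCAGGucccuguucgggcgcca
The same 17 letters were also in 2 CN candidates, CN-105-5p with 6 and 4 reads and CN-379-5p with 0 and 3. Summed over these 4 entries there were 779 and 172 reads, a ratio of 6.04 (5.12 to 7.17). With all isomiRs there were 2056 and 215 reads, a ratio of 12.8 (11.1 to 14.8). The listed 0 of PC-1274-5p therefore stood beside 172 reads of entries that overlap it.

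The other tRNA-named members were less abundant. PC-1260b-5p had 52 and 50 reads, or 4.35 and 3.13 RPM, a ratio of 1.39 (0.923 to 2.09). PC-1937b-5p had 46 and 15 reads and was 4.09-fold higher (2.24 to 7.89). PC-720-1-5p had 9 and 0 reads and PC-720-5p, the same sequence without the first A, had 0 and 6.

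PC-210-3p, the miRNA best known for its induction by low oxygen, had 952 and 743 reads, or 79.6 and 46.5 RPM, a ratio of 1.71 (1.55 to 1.88). With all isomiRs, 1374 and 1418 reads, the ratio was 1.29. PC-652-3p had 499 and 406 reads, or 41.7 and 25.4 RPM, a ratio of 1.64 (1.44 to 1.87), and 2.34 with all isomiRs. Both were under the 2-fold limit by the most abundant sequence, and PC-652-3p was called higher with all isomiRs. PC-1247-5p had 30 and 90 reads, or 2.51 and 5.64 RPM, and was 2.25-fold lower (1.47 to 3.52). The CN table held the identical sequence as CN-374-5p, with 23 and 78 reads. PC-1277-3p had 57 and 61 reads, or 4.76 and 3.82 RPM, a ratio of 1.25 (0.854 to 1.82), which went below 1 with no scaling. PC-450b-1-5p had 64 and 37 reads, or 5.35 and 2.32 RPM, a ratio of 2.31 (1.52 to 3.56).

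**Figure D5:**
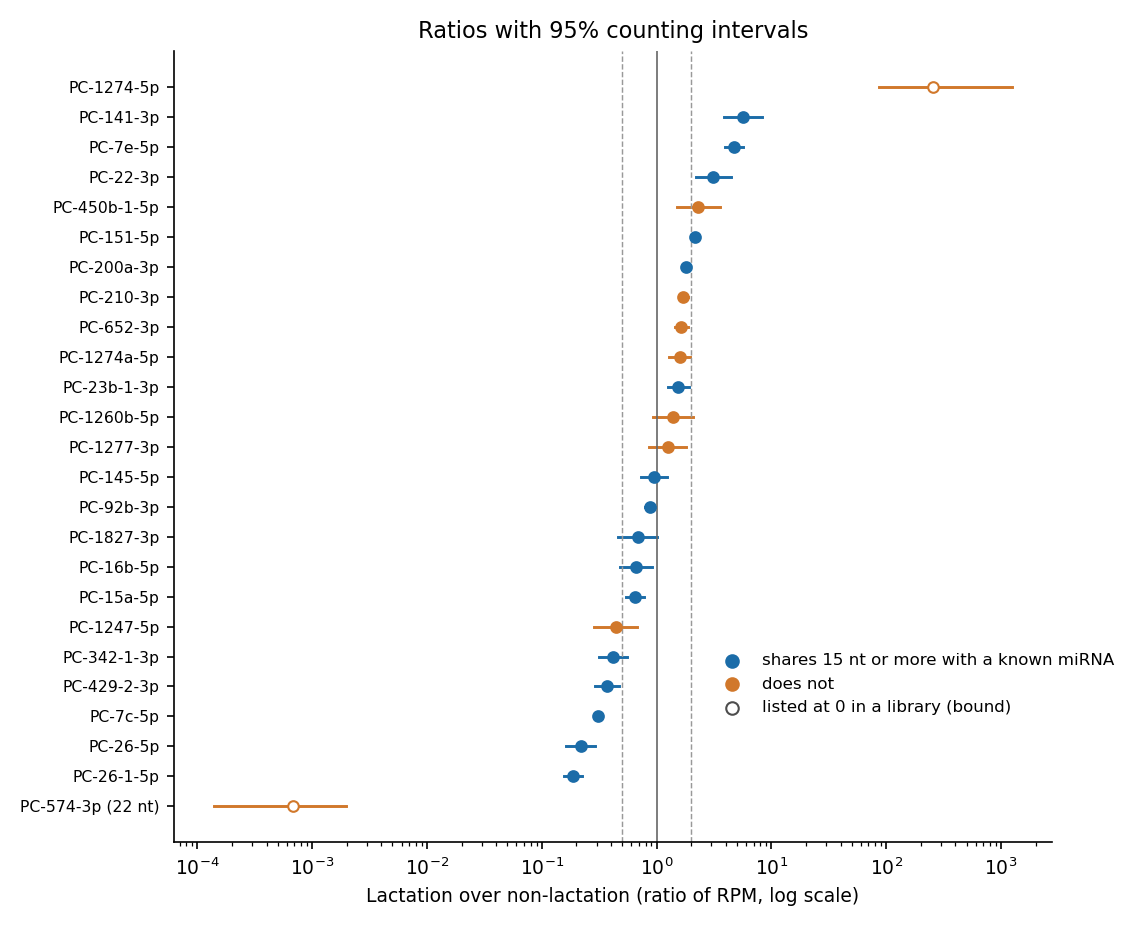
Ratio of RPM, lactation over non-lactation (x axis, log scale), for the 25 conserved miRNAs with at least 100 reads. Bars are exact 95% counting intervals, dashed lines mark 2-fold, and open points are bounds from a count listed at 0. The sharing members lie between 0.187 and 5.63.

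The members without a shared run that differed from a known miRNA by 1 or 2 inner substitutions had few reads. PC-193a-5p had 17 and 0 reads, beside 5538 and 1419 reads of mir-193a-5p and its ratio of 5.21. PC-199b-3p had 9 and 24 reads, a ratio of 0.5005 (0.205 to 1.12). It was called lower under TMM, DESeq2 size factors, no scaling and all isomiRs, with a ratio of 0.314 in the last. It stood beside 25123 and 159166 reads of mir-199a-3p and its ratio of 0.211. PC-7b-5p had 4 and 5 reads against 192 and 199 of mir-7-5p, and PC-139-5p had 3 and 4 against 2727 and 1581 of mir-139-5p. PC-151-3p had 3 reads, PC-330-3p 4 and PC-106a-5p 3, each in a single library.

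Among the other members with at least 20 and under 100 reads, PC-1949-3p had 23 and 8 reads and was 3.84-fold higher in lactation (1.66 to 9.92), and PC-1842-5p had 27 and 9 reads and was 4.004-fold higher (1.83 to 9.68). Both had a listed position and no shared run. PC-598-3p with 48 and 50 reads and PC-434-1-3p with 25 and 20 had intervals that held 1, as did PC-215-5p with 5 and 16 and PC-30d-5p with 9 and 11. PC-215-5p was called lower under TMM, DESeq2 size factors and no scaling, and PC-434-1-3p higher with all isomiRs, with a ratio of 2.11. The ratio of PC-30d-5p went below 1 under TMM, DESeq2 size factors and no scaling, and that of PC-598-3p with no scaling. The 49 members under 20 summed reads, 16 with a shared run and 33 without, were too shallow for a call.

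Both arms of a hairpin were listed for 4 names. PC-151-5p stood at 1426 and 886 reads and PC-151-3p at 0 and 3. PC-450b-1-5p had 64 and 37 reads and PC-450b-3p 3 and 9. PC-378-5p had 15 and 18 reads and PC-378-3p 8 and 0, and PC-15b-5p had 3 and 0 reads and PC-15b-3p 4 and 0. Among these conserved entries, the 5′ arm held more reads in both libraries in the first 3 pairs. The known mir-151-3p, from which PC-151-3p differs by A10G, had 494 and 1395 reads, a ratio of 0.473. In the non-lactation library that known 3′ arm thus held more reads than PC-151-5p. In the mir-378-like list PC-422a-5p, with the seed of PC-378-3p, had 0 and 6 reads.

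The most abundant sequence took a larger part of the isomiR reads in sharing members than in known miRNAs. Among those with at least 20 reads in the lactation library the median was 84.4% over 20 sharing members, 55.5% over 14 others and 46.9% over 203 known miRNAs. In the non-lactation library the medians were 84.1%, 64.9% and 46.4% over 17, 11 and 209 miRNAs. Within the sharing members the range was wide, from 26.5% for PC-26-1-5p to 100% in the lactation library. Known miRNAs had more reads and more kinds of isomiRs, with a median of 21 kinds against 3.5 in sharing members of the lactation library.

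By homolog species, members with at least 20 reads had a median log2 ratio of 0.47 where human was named (11 members), 0.71 for mouse or rat without human (8), -0.07 for platypus or opossum with no other species but cattle (13) and 0.15 for other species (7). The median for mouse or rat turned to -0.18 with at least 100 reads. That for other species turned to -0.11 under TMM, -0.13 under DESeq2 size factors and -0.26 with no scaling. All 13 of the platypus or opossum class shared a run with a known miRNA, so that species and shared sequence cannot be told apart there. The ranges of the 4 classes overlapped, from -2.19 to 2.24 in the platypus or opossum class and from -1.70 to 2.03 in the mouse or rat class.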

How the data were processed

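Small RNA of the mammary gland was sequenced by the authors on an Illumina Genome Analyzer. After trimming and removal of other RNA classes, reads were mapped with ACGT101-miR to mammalian miRBase and to the bovine genome BTA 4.0. The deposited values are counts of reads, which the authors made for the most abundant sequence and for all isomiRs of each miRNA, with another column giving the number of isomiR kinds. No columns of fold changes were used.

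Members and lists were chosen with earlier results of these data known. Sequences were compared as deposited, same strand. RPM used the clean reads the study gives for each library. Intervals of ratios and shares are exact (Clopper-Pearson, 95%). The interval of a difference between member and partner is a normal approximation on the log scale. With 1 library per condition, no p-value was computed. Depth sets precision: at 100 summed reads a ratio was known to within the interval printed for PC-450b-1-5p, and read copies are not independent molecules. Hairpins were compared without gaps.

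Described in full were members with at least 100 summed reads, members of 1 library alone with at least 20, both arms of a hairpin, and listed families. Other names, such as PC-1949-3p and PC-1842-5p, were chosen after their values were seen. Alternatives were other scalings (listed reads, TMM, DESeq2 size factors, none), all isomiR reads, other read minimums, folds and run lengths, members at 0 left out, and the species of the first row. Python 3.11.15, scipy 1.17.1, matplotlib 3.10.9, R 4.3.3, edgeR 4.0.16 and DESeq2 1.42.0 were used, the last 2 for scaling factors alone. The calls were tested on reads simulated with counting error alone, which does not cover the spread between animals. RefSeq supplied names alone. A conserved miRNA of the rule is not reported here by name. The study's microarray and PCR were not analysed here.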

Additional observations from a re-analysis of the deposited data

How the results depend on the processing

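No paired analysis was possible because each condition had 1 library. Against 12 higher and 7 lower calls, there were 6 higher with at least 100 summed reads, and at 4-fold there were 6 higher and 3 lower. With no scaling there were 10 higher and 12 lower calls, and with all isomiRs 18 and 11. TMM moved every log2 ratio by -0.26, DESeq2 size factors by -0.28 and no scaling by -0.42, and under the first 2 there were 10 higher and 9 lower calls. The share of calls over all miRNAs of the series was counted in the main setting alone. The call counts under the alternatives thus have no background beside them and do not set the members apart from the series. The median log2 ratio of members not sharing 15 nt was 0.30 with no scaling. The median of sharing members was negative under every alternative but all isomiRs, where it was 0.11. The share of member reads in sharing members became 51.4% in the lactation and 52.8% in the non-lactation library with runs of 18 nt, and 66.2% and 61.6% with all isomiRs. Without PC-574-3p (22 nt), an alternative chosen after seeing the data, it was 86.5% in the non-lactation library. With 12 nt runs 44 members shared, with 18 nt 32, and 46 when members within 2 substitutions of a known miRNA were added, also chosen after seeing the data. The median for other species was -0.11 by TMM, -0.13 by DESeq2 size factors and -0.26 with no scaling, and that for mouse or rat -0.18 with at least 100 reads. The causes were not tested. Of 74 ratios of single members, 14 left their interval with no scaling, 9 under TMM, 9 under DESeq2 size factors and 8 with all isomiRs. No called ratio changed sides. With 1 cow per condition, the spread between animals is unknown, and 39 members had 10 reads or fewer.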
